A study of Mus musculus with 54 samples.

Results

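The genes described here are 10 genes that mark astrocytes: Gfap, Vim, S100b, Aqp4, Aldh1l1, Slc1a2, Slc1a3, Glul, Gja1 and Gjb6. All probe sets that the array annotation gave to one of these symbols and to no other gene were taken, which were 33 of the 45037 probe sets tested, and 1 further probe set shared by Slc1a2 and another gene was left out. Gfap had 3 probe sets, Vim 3, S100b 2, Aqp4 3, Aldh1l1 2, Slc1a2 5, Slc1a3 6, Glul 2, Gja1 6 and Gjb6 1. Gfap and Vim, with 6 probe sets, were treated as reactive genes and the other 8, with 27 probe sets, as homeostatic genes. The data came from 54 arrays of whole dissected tissue (striatum, brainstem or cerebellum) from 3 mouse lines at young and old age. WT mice were of the FVB/N background strain, and PrPmtA and PrPmtB were 2 independently made lines of that background in which the prion protein promoter drove a human transgene. The study described that promoter as neuron-specific, and whether astrocytes expressed the transgene was not tested here. Young mice were 6 months old and old mice 20 to 28 months old. Young mice gave 2 arrays for every line in every region. The old groups held 4 WT, 2 PrPmtA and 2 PrPmtB arrays of striatum, 6, 4 and 3 of brainstem, and 6, 5 and 4 of cerebellum.

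Astrocytes clear glutamate and potassium from the space around synapses, convert glutamate to glutamine, move water at blood vessels and are coupled to each other through gap junctions. After injury, in disease and with age they can become reactive, a state in which the intermediate filament proteins GFAP and vimentin increase. The genes for transport, metabolism and coupling are called homeostatic here because they serve these constant tasks. In whole tissue, fewer cells of a type and less RNA per cell cannot be told apart, and this holds for every value below.

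The region upstream of the gene start is shown for 4 members that differ in their course with age: Gfap and Aldh1l1, which were higher in old mice in every line and region, Gja1, whose calls were all lower, and Vim, whose probe sets disagreed. Each run is the RefSeq promoter window of build GRCm38.p6 on the gene's own strand, 5′ to 3′, from 250 bases before to 20 bases after the annotated start. The positions were chr11:102897181-102897450 on the minus strand for Gfap, chr2:13574061-13574330 on the plus strand for Vim, chr6:90550543-90550812 on the plus strand for Aldh1l1 and chr10:56377050-56377319 on the plus strand for Gja1. Capitals mark a match to TTCNNNGAA, the core letters recognised by STAT factors, or to TGANTCA, the core letters of AP-1.
Gfap: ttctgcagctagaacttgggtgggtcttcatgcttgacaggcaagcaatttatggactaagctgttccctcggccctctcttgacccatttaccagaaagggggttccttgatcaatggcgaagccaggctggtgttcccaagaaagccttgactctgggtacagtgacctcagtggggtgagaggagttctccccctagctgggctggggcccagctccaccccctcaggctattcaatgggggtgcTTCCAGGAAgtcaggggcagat
Vim: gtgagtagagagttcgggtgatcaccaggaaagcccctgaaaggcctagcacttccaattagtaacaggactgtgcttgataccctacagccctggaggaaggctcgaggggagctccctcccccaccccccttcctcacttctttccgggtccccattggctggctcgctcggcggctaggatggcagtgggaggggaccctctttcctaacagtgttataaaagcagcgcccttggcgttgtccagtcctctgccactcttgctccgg
Aldh1l1: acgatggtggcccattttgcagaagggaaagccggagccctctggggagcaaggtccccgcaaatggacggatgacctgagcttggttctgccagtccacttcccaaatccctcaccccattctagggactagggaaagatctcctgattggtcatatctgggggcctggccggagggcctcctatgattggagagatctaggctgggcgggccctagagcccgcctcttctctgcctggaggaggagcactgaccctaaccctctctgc
Gja1: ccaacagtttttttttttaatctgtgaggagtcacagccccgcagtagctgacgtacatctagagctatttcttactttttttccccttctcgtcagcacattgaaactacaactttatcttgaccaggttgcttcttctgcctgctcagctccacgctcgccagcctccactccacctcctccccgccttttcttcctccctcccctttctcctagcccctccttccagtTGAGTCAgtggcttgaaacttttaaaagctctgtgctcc
Both motifs read the same on both strands, and they did not overlap each other here. A promoter window was found for 9 of the 10 genes, all but Aqp4. TTCNNNGAA occurred in 2 of the 9, Gfap and Slc1a3, and in 7.58% of 32851 windows of 270 bases in the table. In Gfap the match started 2 bases before the annotated start, and in Slc1a3 it started 96 bases before it. TGANTCA occurred in Gja1 only, 19 bases before the start, and in 7.23% of all windows. A match describes the letters in this window and is not evidence of binding.

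Some arrays stood apart and are named before the results. All young arrays belong to 1 run of array codes and all old arrays to the other 2 runs, so age and run cannot be told apart. The 3 PrPmtA arrays of 28 months (1 per region), labelled female, had log2 signals of 8.2 to 10 for Xist and of 6.01 to 7.02 for the Y-linked gene Eif2s3y, which was at 2.76 to 3.23 in the other 30 arrays labelled female. Counts without these 3 arrays are given beside the main counts. By label 33 arrays were female, 15 male and 6 female+male. Each young group held both sexes. Old arrays of 21, 22 and 28 months were labelled female, those of 26 months male and those of 20 months female+male. Sex and age in months are therefore confounded in old mice. Both old PrPmtA striatum arrays were of 26 and 28 months and all old PrPmtB arrays of 20 to 22 months, so line and exact age are partly confounded in old mice. The labels do not say that arrays of a group come from different mice, and p-values measure the spread between these arrays. Arrays of different regions may share a mouse. Striatal and cerebellar markers were high in their own tissues, whereas Chat, a brainstem marker, was at 2.31 to 2.42 in every brainstem array. That is near the lowest signals of the arrays. The mean of 7 cerebellar markers varied between brainstem arrays (8.19 to 9.13 in young, 6.81 to 9.80 in old). Within the brainstem the arrays also split by age, as described with the Gfap values of that region.

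Signals are log2 values, so a difference of 1 is a doubling, and they are compared only within a probe set, since different probe sets bind with different strength. The probe set with the highest mean over the 54 arrays leads for each gene and is called the brightest. A probe set was called higher or lower by limma's nested F procedure, which first tests all comparisons of a family together and then assigns calls to single comparisons, at a false discovery rate of 0.05. A probe set with a large change in one group can therefore be called in another where its own adjusted p is above that rate, and where such a call is described with its own value, the adjusted p of the single comparison is given. Errors after ± are standard errors of the fit unless SD is stated.

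Gfap encodes the main intermediate filament protein of astrocytes and had the largest mean age changes of the 10 genes. Its 3 probe sets were called higher in old mice in all 9 combinations of line and region, with changes between 1.13 and 4.32. In young striatum the brightest probe set (1426508_at) read 6.56 and 7.15 (WT), 7.34 and 7.38 (PrPmtA) and 7.09 and 7.20 (PrPmtB). In old striatum it read 8.80, 10.27, 11.07 and 11.60 (WT), 11.36 and 11.60 (PrPmtA) and 10.32 and 10.48 (PrPmtB). Every old striatal array was above every young one, and the old WT arrays spread the most (SD 1.22, n = 4). The age change was 3.58 ± 0.57 in WT (limma adjusted p = 4.32e-06), a 12-fold difference. It was 4.12 ± 0.66 in PrPmtA (adjusted p = 0.000195) and 3.25 ± 0.66 in PrPmtB (adjusted p = 0.000778).

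In cerebellum young arrays of the same Gfap probe set read 6.94 and 7.25 (WT), 7.03 and 7.63 (PrPmtA) and 7.48 and 8.02 (PrPmtB). Old arrays ran from 9.95 through a median of 11.01 to 11.54 in WT (n = 6), were 10.19, 10.42, 10.68, 10.76 and 10.76 (PrPmtA) and 9.98, 10.88, 11.39 and 11.47 (PrPmtB). Old and young arrays again did not overlap. The differences were 3.81 ± 0.54 in WT (limma adjusted p = 1.5e-06), 3.23 ± 0.55 in PrPmtA (adjusted p = 9.43e-05) and 3.18 ± 0.57 in PrPmtB (adjusted p = 0.000233).

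In the brainstem Gfap was already high at 6 months. Young arrays read 9.44 and 9.65 (WT), 9.32 and 9.58 (PrPmtA) and 9.62 and 9.73 (PrPmtB), all above every young array of the other regions. Old arrays ran from 10.32 through 10.84 to 12.47 in WT (n = 6), were 10.34, 10.42, 12.15 and 12.18 (PrPmtA) and 10.68, 10.88 and 10.88 (PrPmtB). All old arrays exceeded all young ones. The change was 1.71 ± 0.54 in WT (limma adjusted p = 0.0167), 1.82 ± 0.57 in PrPmtA (adjusted p = 0.0262) and 1.13 ± 0.60 in PrPmtB, where the call rested on the family test (adjusted p = 0.327 for the single comparison). The PrPmtB call was lost when each comparison was adjusted by itself, when the brainstem was fitted alone, and without either of the young PrPmtB brainstem arrays (1.08 and 1.19).

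**Figure D1:**
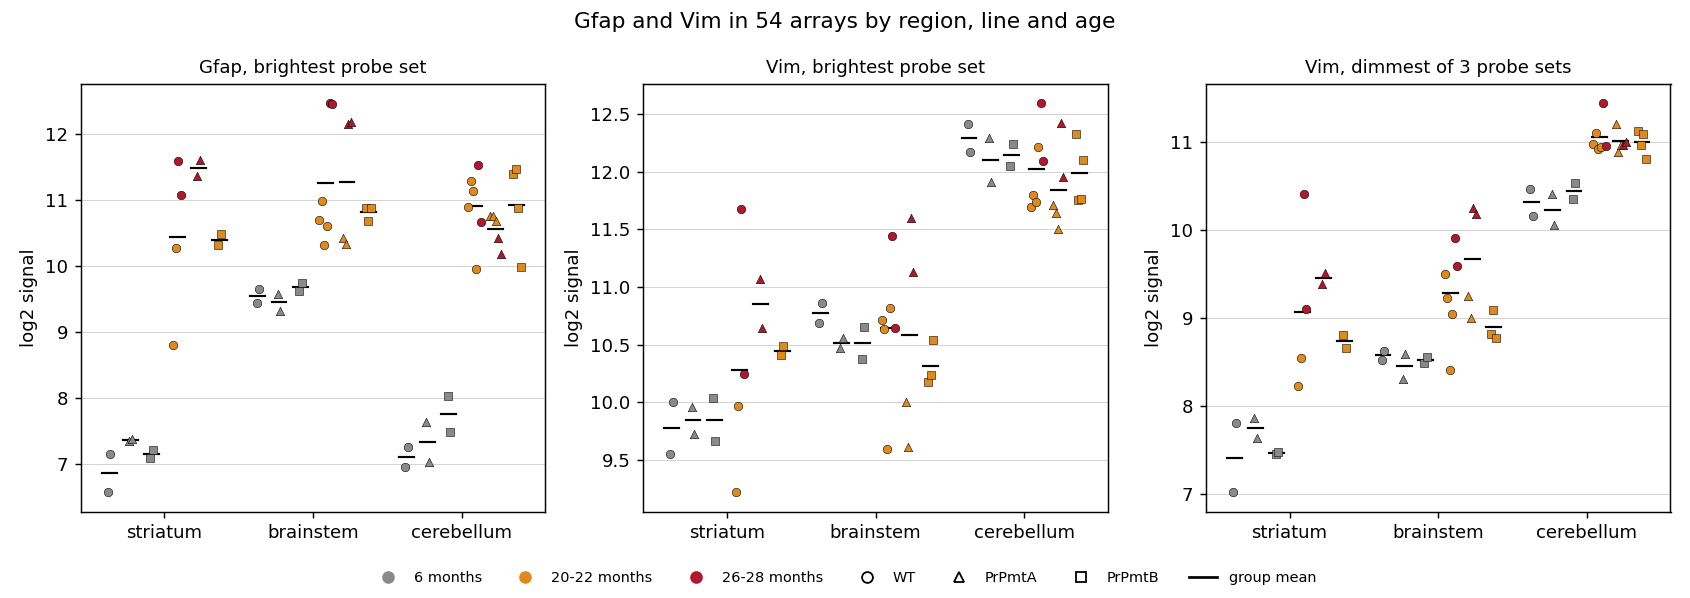
Log2 signal of Gfap and Vim probe sets in each of the 54 arrays, by region, with colour for age, marker shape for line and a bar for each group's mean. Young Gfap signals were highest in brainstem (9.32 to 9.73), and the old arrays of all 3 regions lay between 8.80 and 12.47.

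The old brainstem arrays split by age in months. The 4 arrays of 26 and 28 months (WT and PrPmtA) had Gfap signals of 12.15 to 12.47, and the 9 arrays of 20 to 22 months (all 3 lines) had 10.32 to 10.99. The same 9 arrays had low signals of 2 of 8 measured genes that mark the brainstem. Slc6a5, the glycine transporter of glycinergic neurons, was at 2.42 to 5.65 in them, at 8.86 to 9.52 in the 6 young arrays and at 8.67 to 9.12 in the arrays of 26 and 28 months. Hoxb5, a hindbrain patterning gene, was at 2.37 to 2.4 in them, at 4.30 to 6.66 in young arrays and at 7.33 to 7.89 in the oldest arrays. The other 6 markers did not have all 9 arrays below all other brainstem arrays. Tph2 and Slc6a4, genes of serotonergic neurons, ran in the 9 from 3.11 to 10.45 and from 2.26 to 8.38, below and above the other arrays (8.76 to 9.71 and 6.79 to 7.71). Ddc, the enzyme aromatic amino acid decarboxylase, was at 10.7 to 11.64 in the 9, against 10.37 to 10.7 in young and 10.42 to 10.65 in the oldest arrays. The mean of the list was 4.42 to 6.72 in the 9, against 7.04 to 7.41 and 7.48 to 7.73. The age in months and these marker levels cannot be told apart in these arrays.

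With old arrays of 26 and 28 months only, the brainstem change of Gfap was 2.92 ± 0.28 in WT and 2.72 ± 0.28 in PrPmtA, and with those of 20 to 22 months only it was 1.11 ± 0.40 in WT and 1.13 ± 0.42 in PrPmtB. Both fits were added after this split was seen. In striatum the 4 arrays of 26 and 28 months also lay above the 4 of 20 and 22 months (11.07 to 11.60 against 8.80 to 10.48), whereas in cerebellum the 4 and the 11 arrays overlapped (10.19 to 11.54 and 9.95 to 11.47). Of the 33 probe sets, 4 had all arrays of 26 and 28 months above all younger old arrays in striatum (1.05% of all probe sets did) and none had them below (0.975%). The 4 were 2 of Gfap, the dimmest of Vim and 1 of Slc1a2. In brainstem 6 did so (3.47% of all) and none lay below (3.22%), namely the 3 of Gfap, the dimmest of Vim and both of S100b. In cerebellum there were 0 in either direction (0.644% above and 0.566% below).

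**Figure D2:**
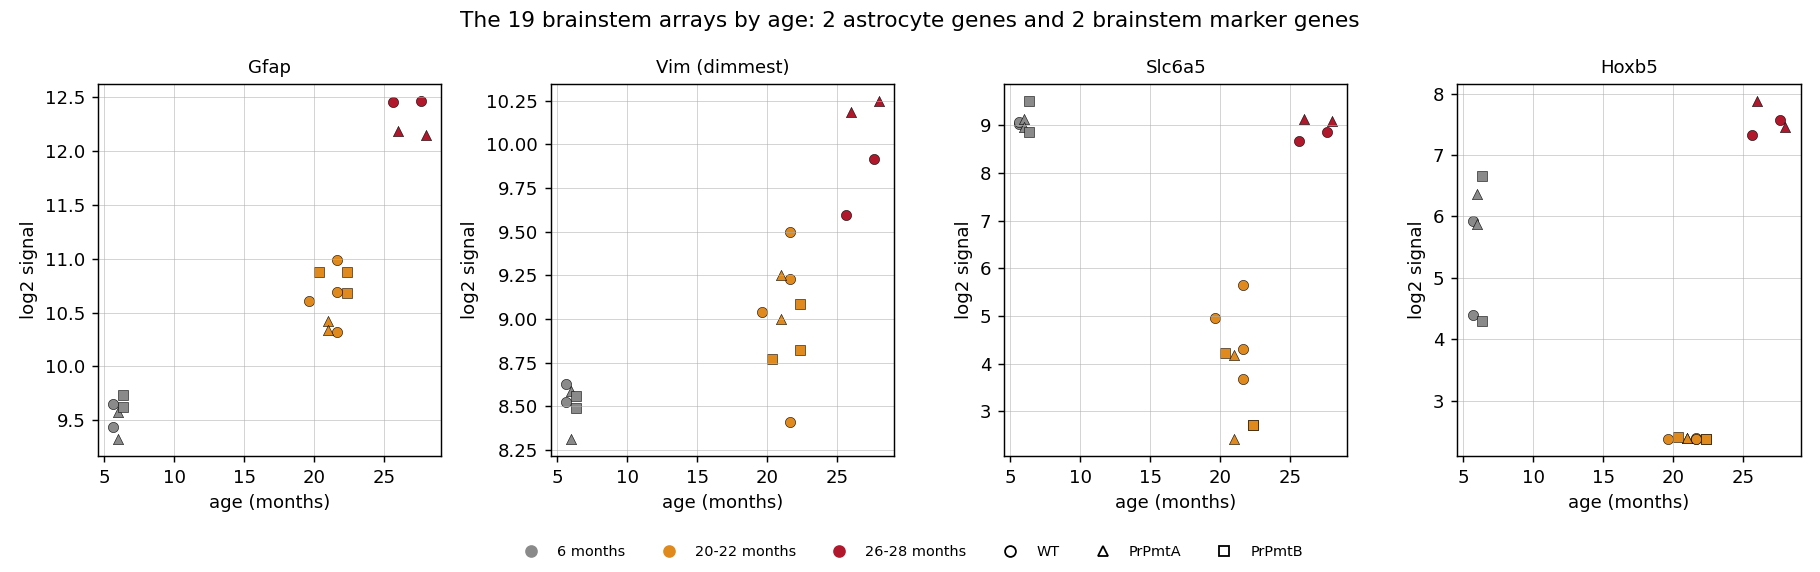
Log2 signal in the 19 brainstem arrays by age of the mice, for Gfap and for brainstem marker genes, with marker shape for line. The 9 arrays of 20 to 22 months were low in Slc6a5 (2.42 to 5.65) and lower in Gfap (10.32 to 10.99) than the 4 arrays of 26 and 28 months (12.15 to 12.47).

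Vim encodes vimentin, the other intermediate filament protein of reactive astrocytes, which endothelial, ependymal and meningeal cells also make. Its probe sets did not give one course with age. The brightest and the second brightest were called in 0 of the 9 age comparisons, and the dimmest (1450641_at) was called higher in 7. In young striatum the dimmest read 7.02 and 7.81 (WT), 7.64 and 7.86 (PrPmtA) and 7.45 and 7.47 (PrPmtB). In old striatum it read 8.23, 8.55, 9.10 and 10.41 (WT), 9.39 and 9.52 (PrPmtA) and 8.66 and 8.81 (PrPmtB). The old arrays were all above the young ones, and the WT array of 28 months was the highest. The changes were 1.66 ± 0.36 in WT (limma adjusted p = 0.000207), 1.70 ± 0.41 in PrPmtA (adjusted p = 0.0123) and 1.27 ± 0.41 in PrPmtB (adjusted p = 0.0171).

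The same probe set of Vim was also above its young range in all old cerebellar arrays (10.06 to 10.54 in young, 10.81 to 11.45 in old). Its change there was 0.74 ± 0.34 in WT, 0.78 ± 0.34 in PrPmtA and 0.56 ± 0.36 in PrPmtB, of which the first 2 were called (single-comparison limma adjusted p 0.0715 and 0.101) and the change in PrPmtB was not (0.327). In brainstem it was called in WT (0.70 ± 0.34, adjusted p = 0.103 for the single comparison by limma) and PrPmtA (1.22 ± 0.36) and not in PrPmtB (0.37 ± 0.38). The brightest Vim probe set read 9.55 to 10.04 in young and 9.22 to 11.68 in old striatum, where its changes of 0.50 ± 0.44, 1.02 ± 0.51 and 0.60 ± 0.51 were not called. In brainstem and cerebellum its changes lay between -0.27 and 0.07. It carries the suffix of probe sets whose probes can bind other transcripts.

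Markers of some other cells also changed with age. The mean of 10 microglial markers was 7.12 to 7.42 in young and 7.75 to 8.91 in old striatum, 6.16 to 6.69 and 7.29 to 8.73 in brainstem, and 5.10 to 5.55 and 6.39 to 7.41 in cerebellum. Of these 10, 5, 8 and 8 were called higher in WT in the 3 regions (9.07%, 10.6% and 10.8% of all probe sets were). Of 11 neuronal markers 1 was called higher and 1 lower in WT striatum, 0 and 4 in brainstem, and 1 and 0 in cerebellum. The mean of 6 meningeal markers lay above its young range in all old arrays in cerebellum only (5.03 to 5.68 in young, 5.88 to 7.05 in old). In WT brainstem 3 of these 6 were called lower and 0 higher (31.2% of all probe sets were lower). The mean of 6 endothelial markers was 5.86 to 6.05 in young and 6.18 to 6.47 in old striatum and overlapped between ages in the other regions, and ependymal and choroid plexus markers overlapped between ages in every region. Of the 6 endothelial markers, 3 were called higher in WT cerebellum. The mean of 5 markers of oligodendrocyte precursors was 6.11 to 6.36 in young and 6.60 to 7.07 in old cerebellum, where 4 of the 5 were called higher in WT, and 7.47 to 7.76 and 7.72 to 8.37 in striatum, where 3 were called higher in all 3 lines. The part of these cells in the Gfap and Vim signals was not tested.

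The probe sets of the 2 reactive genes were counted in each age comparison beside the share of all 45037 probe sets called in that direction. In striatum, 4 of the 6 were higher in WT (9.07% of all), 4 in PrPmtA (7.07%) and 4 in PrPmtB (8.95%). In brainstem the WT comparison had 4 higher (10.6%), the PrPmtA one 4 (10.2%) and the PrPmtB one 3 (8.25%). In cerebellum, 4 were higher in WT (10.8%), 4 in PrPmtA (9.7%) and 3 in PrPmtB (6.98%). None was lower in any comparison. Over the 9 comparisons this made 34 of 54 (63%), and the count was also 34 without the 3 PrPmtA arrays of 28 months. Most of the 34 were Gfap calls: each of its 3 probe sets had 9, the dimmest of Vim had 7 and the other Vim probe sets had 0. With each comparison adjusted by itself the count was 27. The median age change of the 6 probe sets ran from 0.75 to 2.91, against -0.10 to 0.01 for all probe sets.

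The homeostatic genes had calls in both directions, with the share called lower below that of all probe sets. In striatum, 4 of the 27 probe sets were higher in WT and 7 lower (33.6% of all were lower), 6 higher and 2 lower in PrPmtA (25.6%), while the PrPmtB comparison had 4 of each (29.9%). In brainstem the counts were 3 higher and 7 lower in WT (31.2% of all lower), 4 and 6 in PrPmtA (10.1%), while the PrPmtB comparison had 5 of each (8.55%). In cerebellum they were 4 and 6 in WT (35.6% of all lower), 4 and 5 in PrPmtA (27.8%), with 4 and 0 for PrPmtB (20.8%). Over all 9 comparisons 38 of 243 were higher (15.6%, against 9.08% of all probe sets) and 42 lower (17.3%, against 24.8%). The median change of the 27 lay between -0.07 and 0.16. Without the 3 PrPmtA arrays of 28 months the counts were 33 higher and 46 lower, and with each comparison adjusted by itself they were 30 and 26. Aldh1l1, S100b, Glul and Aqp4 had higher calls only, Gja1 had lower calls only, and Slc1a2 and Slc1a3 had both. Most of the lower calls were those of Gja1. The lower calls of Slc1a3 were all of 1 probe set with a mean signal of 3.68. Those of Slc1a2 were 2 of its dimmest probe set (mean signal 2.24) and 1 of its brightest.

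**Figure D3:**
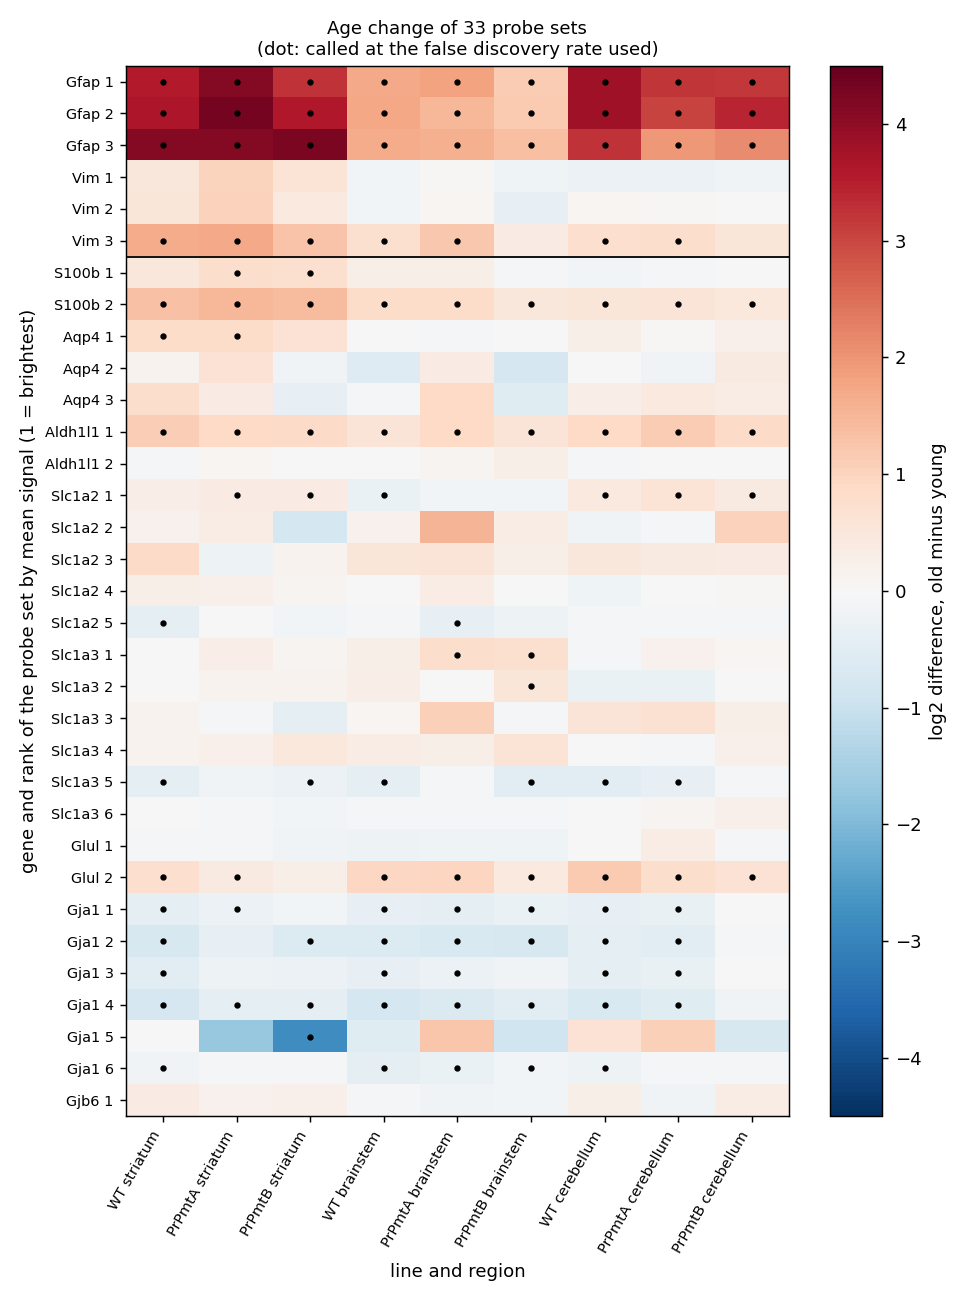
Age change (old minus young, log2) of the 33 probe sets in the 9 combinations of line and region, with the calls marked. The 3 Gfap rows are higher throughout (1.13 to 4.32), and the 6 Gja1 rows hold no call higher.

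Aldh1l1, a folate-metabolising enzyme used as a general astrocyte marker, was the homeostatic gene whose brightest probe set (1424400_a_at) was called higher in all 9 comparisons, by 0.57 to 1.15. In striatum it read 7.12 and 7.61 (young WT), 7.71 and 7.80 (PrPmtA) and 7.72 and 7.82 (PrPmtB). In old striatum it read 7.76, 8.61, 8.69 and 8.77 (WT), 8.64 and 8.71 (PrPmtA) and 8.54 and 8.73 (PrPmtB). A WT array of 22 months, at 7.76, lay within the young range and the other 7 old arrays above it. In cerebellum the 6 young arrays (7.77 to 8.40) lay below the 15 old ones (8.79 to 9.26), and in brainstem the 6 young (7.92 to 8.38) below the 13 old (8.46 to 9.07). The change in cerebellum was 0.88 ± 0.16 in WT, 1.15 ± 0.17 in PrPmtA and 0.88 ± 0.17 in PrPmtB (limma adjusted p = 3.11e-05, 7.22e-06 and 0.000619). The second probe set, at a mean of 2.62 near the lowest signals, was called in none.

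S100b encodes a calcium-binding protein of astrocytes that some oligodendrocytes also contain. Its second brightest probe set (1419383_at) was called higher in all 9 comparisons, by 0.48 to 1.5, and the brightest in 2 (striatum of PrPmtA, 0.79 ± 0.26 with a single-comparison limma adjusted p of 0.0529, and of PrPmtB, 0.72 ± 0.26, lost in 3 and in 6 of 54 fits without 1 array, with 0.50 to 0.82 and 0.66 to 0.78). In striatum the second probe set read 8.66 to 8.99 in the 6 young and 10 to 10.64 in the 8 old arrays. In cerebellum it read 10.69 to 11.16 in young and 11.25 to 11.62 in old arrays, with no overlap in either region. In brainstem 2 old arrays, 1 of WT (10.23) and 1 of PrPmtB (10.19), fell within the young range of 9.94 to 10.24. The change in striatum was 1.33 ± 0.22 in WT, 1.5 ± 0.25 in PrPmtA and 1.44 ± 0.25 in PrPmtB. The mean of 9 oligodendrocyte markers was 10.8 to 11.2 in young and 11.2 to 11.7 in old striatum, and its part in the S100b signal was not tested.

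Glul encodes glutamine synthetase, which makes glutamine from glutamate and ammonia. Its 2 probe sets disagreed: the brightest was called in none of the 9 comparisons (changes from -0.24 to 0.32) and the second (1426235_a_at) was called higher in 8, by 0.40 to 1.19. In cerebellum the second read 7.90 and 8.28 (young WT), 8.40 and 8.41 (PrPmtA) and 8.54 and 9.06 (PrPmtB). In old cerebellum it ran from 9.05 through a median of 9.26 to 9.49 in WT (n = 6), was 8.85, 9.06, 9.28, 9.34 and 9.49 (PrPmtA) and 9.29, 9.41, 9.49 and 9.53 (PrPmtB). The single young PrPmtB array at 9.06 was the only young one within the old range. In brainstem the old arrays (9.80 to 10.59) were all above the young ones (9.13 to 9.73). The change in cerebellum was 1.19 ± 0.17 in WT, 0.80 ± 0.17 in PrPmtA and 0.63 ± 0.18 in PrPmtB (limma adjusted p = 1.72e-06, 0.00161 and 0.0224).

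The glutamate transporters take up glutamate after release, and their changes were below 1 throughout for the brightest probe sets. Slc1a2, which encodes GLT-1, had 1 of 5 probe sets called higher, the brightest, in 5 of 9 comparisons. In striatum this probe set read 12.88 to 13.17 in the 6 young and 13.27 to 13.61 in the 8 old arrays, without overlap, and it was called in PrPmtA (0.38 ± 0.21) and PrPmtB (0.36 ± 0.21) and not in WT (0.29 ± 0.18), with single-comparison limma adjusted p of 0.208, 0.189 and 0.223. It was called in all lines in cerebellum (0.45 ± 0.17, 0.62 ± 0.17 and 0.41 ± 0.18, with 0.0292, 0.0127 and 0.18), where an old WT array of 20 months at 11.23 lay below the young arrays (11.25 to 11.69). In WT brainstem it was called lower (-0.29 ± 0.17, limma adjusted p = 0.181 for the single comparison), where the arrays of 26 and 28 months read 11.91 and 12.24, the 4 younger old arrays 12.58 to 12.81 and the young ones 12.72 and 12.84. This lower call was lost in 38 of 54 fits without 1 array (-0.35 to -0.18), and that in PrPmtB striatum in 29 (0.32 to 0.40) and in PrPmtA striatum in 7 (0.32 to 0.42). The WT cerebellum call was lost without the young array at 11.32 (0.29), and the PrPmtB cerebellum call without that at 11.25 (0.19).

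Slc1a3, which encodes GLAST, had its brightest probe set called higher in 2 of 9 comparisons. In brainstem it read 10.47 and 10.48 (young WT), 9.58 and 9.97 (PrPmtA) and 9.81 and 10.37 (PrPmtB). In old brainstem it read from 10.68 through a median of 10.70 to 10.88 in WT (n = 6), 10.33, 10.45, 10.59 and 10.88 (PrPmtA) and 10.58, 10.69 and 11.16 (PrPmtB). The old PrPmtA array at 10.33 and that at 10.45 lay within the young range. The change was 0.79 ± 0.23 in PrPmtA (limma adjusted p = 0.015) and 0.72 ± 0.24 in PrPmtB (0.0586 for the single comparison), both called, and 0.26 ± 0.22 in WT, not called. The call was lost in 24 of 54 fits without 1 array in PrPmtB (0.44 to 0.78) and in 4 in PrPmtA (0.59 to 0.79), namely without its array at 9.58 or at 10.88, or without the PrPmtB array at 9.81 or at 11.16. The fifth probe set was called lower in 6 comparisons (changes of -0.52 to -0.28). Its mean signal of 3.68 was far below those of the brighter probe sets of this gene and at the 51.4th percentile of all tested probe sets. In striatum and cerebellum the changes of the brightest probe set were small, with a mean over the lines of 0.14 and 0.08. In brainstem the highest arrays of the brightest probe set, at 11.16 (PrPmtB) and 10.88 (WT and PrPmtA), also had the highest means of the 7 cerebellar markers. These means were 9.80, 9.50 and 9.79, and their part in the Slc1a3 values was not tested.

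Gja1 and Gjb6 encode connexin 43 and connexin 30, the gap junction proteins of astrocytes. Gja1 had no probe set called higher in any comparison, and its 6 probe sets were called lower in 7, 7, 5, 8, 1 and 5 of 9, from the brightest to the dimmest. In these comparisons 8.55% to 35.6% of all probe sets were called lower. The 6 probe sets measure the same gene, so their calls are not independent. The fourth in brightness (1438945_x_at) read 11.92 to 12.44 in the 6 young and 11.13 to 11.75 in the 8 old striatal arrays, and the second and the third had no overlap there either. Of all probe sets 31.5% had every old striatal array below every young one. In cerebellum the fourth probe set read 12.18 and 12.33 (young WT), 11.97 and 12.19 (PrPmtA) and 11.86 and 11.91 (PrPmtB). Old WT arrays of that region ran from 11.30 through 11.67 to 11.76 (n = 6), PrPmtA arrays from 11.08 to 11.94 (n = 5) and PrPmtB arrays from 11.55 to 12.05 (n = 4). The change of this probe set was -0.76 ± 0.20 in WT striatum (limma adjusted p = 0.00238), -0.79 ± 0.19 in WT brainstem (0.00303) and -0.67 ± 0.19 in WT cerebellum (0.00409). In PrPmtB cerebellum it was -0.15 ± 0.20 and not called. For the brightest probe set (changes of -0.43 to 0.03), the calls of PrPmtA striatum, PrPmtB brainstem and PrPmtA cerebellum (single-comparison limma adjusted p of 0.215, 0.243 and 0.0532) were lost in 3, 2 and 1 of 54 fits without 1 array (-0.32 to -0.21, -0.23 to -0.22 and -0.27). Of the 6 probe sets 4 carry the suffix of probes that can bind other transcripts. Gjb6, with 1 probe set, was called in none, and its changes lay between -0.17 and 0.36.

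Aqp4 encodes the water channel of astrocyte endfeet. Its brightest probe set was called higher in 2 of 9 comparisons, both in striatum. Young striatal arrays read 9.85 and 10.13 (WT), 9.70 and 10.05 (PrPmtA) and 9.83 and 10.19 (PrPmtB), and old ones 10.04, 10.64, 11.05 and 11.53 (WT), 10.53 and 10.86 (PrPmtA) and 10.65 and 10.65 (PrPmtB). The old WT array of 26 months, at 10.04, lay within the young range and the other 7 above it. The change was 0.82 ± 0.23 in WT and 0.82 ± 0.26 in PrPmtA (limma adjusted p = 0.00317 and 0.0471), both called, and 0.64 ± 0.26 in PrPmtB, not called (0.0605). The WT call was lost without the young array at 9.85 (0.69), and the PrPmtA call without its array at 9.70 or at 10.86 (0.65 to 0.66), whereas PrPmtB was called without any of 5 arrays (0.64 to 0.82). The WT array of 28 months had the highest striatal signal of the brightest probe sets of Aqp4, Vim (11.68) and S100b (11.40), and the highest microglial list mean. The other 2 probe sets of Aqp4 were called in none.

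**Figure D4:**
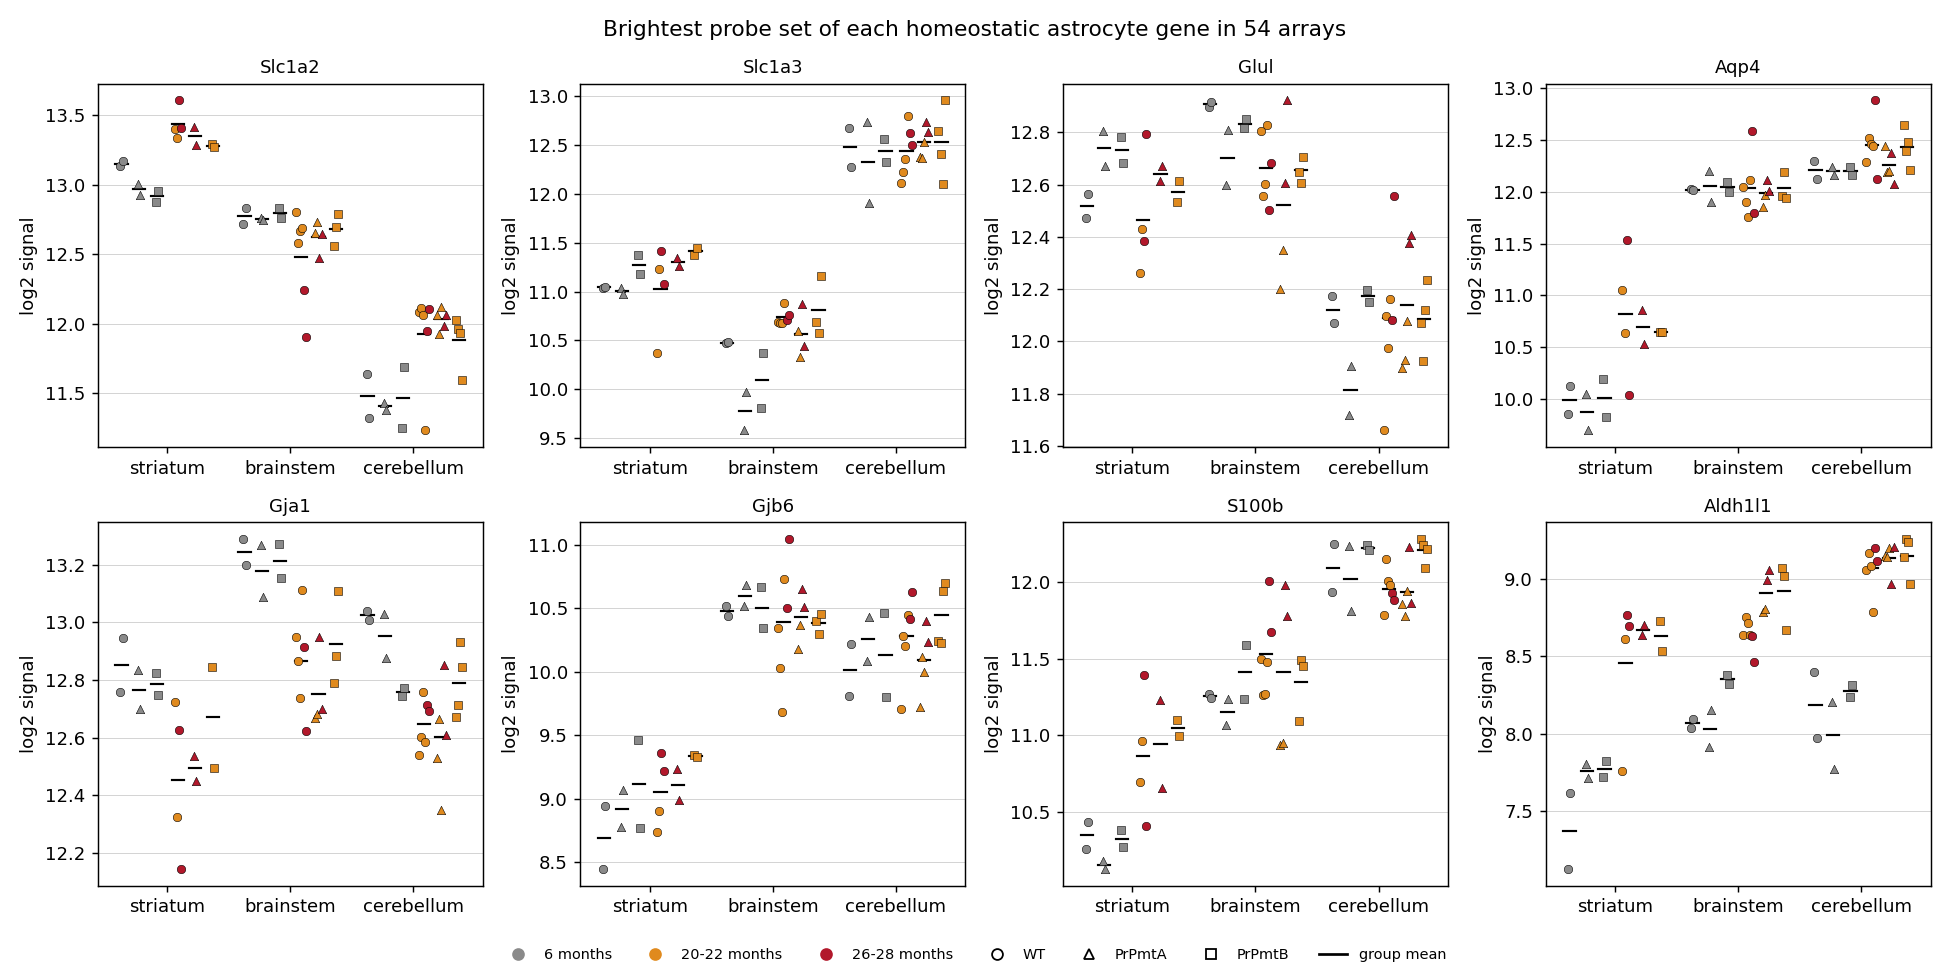
Log2 signal of the brightest probe set of each of the 8 homeostatic genes in the 54 arrays, by region, with colour for age, shape for line and a bar for each group's mean. Aldh1l1 separates by age in brainstem and cerebellum, Gja1 is lower in most old arrays, and Aqp4 and Gjb6 are lowest in striatum.

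Counted by array rather than by fit, 6 of the 33 probe sets had every old array above every young one in striatum (3.97% of all probe sets), 5 in brainstem (3.87%) and 6 in cerebellum (2.77%). The 3 of Gfap were among them in each region. Beside them stood the dimmest of Vim, the second of S100b and the brightest of Slc1a2 in striatum, the brightest of Aldh1l1 and the second of Glul in brainstem, and the dimmest of Vim, the second of S100b and the brightest of Aldh1l1 in cerebellum. Every old array lay below every young one for 3 probe sets of Gja1 in striatum (31.5% of all probe sets), for 0 in brainstem (3.75%) and for 1 of Slc1a2 in cerebellum (21.5%). That Slc1a2 probe set has a mean signal of 2.24, near the lowest on the arrays, and its change in cerebellum was called in no line.

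Region differences in level were tested as means over lines and ages. Of the 33 probe sets, 22 differed between striatum and cerebellum (7 higher, 15 lower in striatum, with 64.2% of all probe sets called), 28 between brainstem and cerebellum (15 higher, 13 lower in brainstem, 43.8%) and 27 between striatum and brainstem (8 higher, 19 lower in striatum, 63.2%). The 3 comparisons held 77 calls in all, and a fit without the 3 PrPmtA arrays of 28 months gave 74. The brightest Gfap probe set was highest in brainstem, at a mean of 10.3 over its 6 groups, against 9.10 in cerebellum and 8.95 in striatum. Brainstem minus cerebellum was 1.24 ± 0.23 and striatum minus brainstem -1.39 ± 0.25 (limma adjusted p = 2.19e-05 and 9.57e-06), and the difference of striatum from cerebellum was -0.15 ± 0.24 and not called.

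Vim had another order, with cerebellum (mean 12.1) above brainstem (10.6) and striatum (10.2). Its brightest probe set differed from cerebellum by -1.89 ± 0.19 in striatum and by -1.51 ± 0.18 in brainstem. The step of -0.38 ± 0.19 from brainstem to striatum was called (adjusted p = 0.0746 for the single comparison by limma) and was lost in 31 of the 54 fits without 1 array. The 2 reactive genes therefore did not share an order of regions. S100b followed the order of Vim (12.1, 11.4 and 10.6, each step called), as did Aldh1l1 in a narrow range (8.63, 8.49 and 8.11, with the first step lost in 7 of 54 fits without 1 array) and Aqp4 (12.3, 12 and 10.3).

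Among the homeostatic genes, the glutamate transporters differed in the place of cerebellum. The brightest probe sets of both were higher in striatum than in brainstem (0.50 ± 0.08 for Slc1a2 and 0.77 ± 0.10 for Slc1a3, both called). Slc1a2 was highest in striatum (13.2), then brainstem (12.7) and cerebellum (11.7), with striatum above cerebellum by 1.49 ± 0.08. Slc1a3, the transporter of Bergmann glia in the cerebellum, was highest there (12.5), then in striatum (11.2) and brainstem (10.4), whose difference from cerebellum was -2.05 ± 0.09. Glul was lowest in cerebellum (12.1), and striatum (12.6) minus brainstem (12.7) was -0.10 ± 0.07 for the brightest probe set, not called (limma adjusted p = 0.21), and -0.27 ± 0.08 for the second, called (0.00294). Gja1 ranged from 12.7 to 13 with brainstem highest, and its step from cerebellum to striatum was lost in 4 of 54 fits without 1 array (-0.11 to -0.10). The level of Gjb6 was lowest in striatum (9.04), which differed from brainstem (10.5) by -1.43 ± 0.11 and from cerebellum (10.2) by -1.17 ± 0.11.

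**Figure D5:**
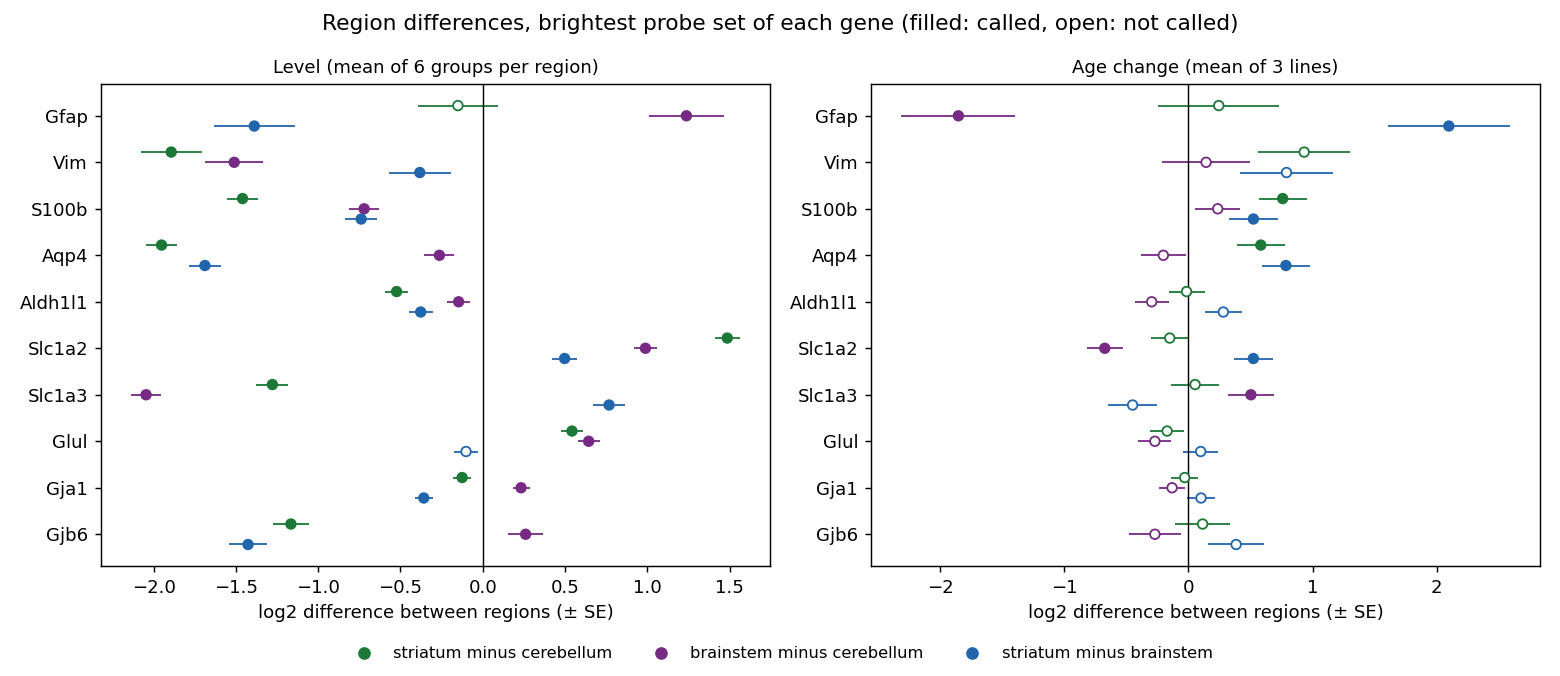
Difference between regions in level (left) and in age change (right) for the brightest probe set of each gene, as log2 difference ± SE, with filled points for calls. Gfap shows its highest level in brainstem and its smallest age change there (-1.85 against cerebellum, and 2.10 for striatum minus brainstem).

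The difference between regions in the age change was tested itself. Of the 33 probe sets, 6 differed between striatum and cerebellum (5 more positive and 1 more negative in striatum, with 13.6% of all probe sets called), 6 between brainstem and cerebellum (2 and 4, 28.2%) and 8 between striatum and brainstem (8 and 0, 33.3%). The 20 calls in all were 20 without the 3 PrPmtA arrays of 28 months and 8 with the old arrays of the third run of codes only. The age change of the brightest Gfap probe set, as a mean over lines, was 3.65 in striatum, 3.41 in cerebellum and 1.56 in brainstem. The difference in age change was -1.85 ± 0.46 for brainstem minus cerebellum and 2.10 ± 0.49 for striatum minus brainstem (limma adjusted p = 0.00507 and 0.00119), and 0.24 ± 0.49 and not called for striatum minus cerebellum (0.787). The dimmest Gfap probe set gave 1.71 ± 0.44 for striatum minus cerebellum, called (0.0134), -0.90 ± 0.41 for brainstem minus cerebellum, not called (0.0959), and 2.62 ± 0.44 for striatum minus brainstem, called (4.12e-05).

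These differences were also fitted by age of the old arrays. The fit with 26 and 28 months holds WT and PrPmtA and that with 20 to 22 months WT and PrPmtB, so the lines averaged change together with the ages. For the brightest Gfap probe set, brainstem minus cerebellum was -0.67 ± 0.28 with 26 and 28 months and not called (limma adjusted p = 0.128), -2.33 ± 0.40 with 20 to 22 months and called, and -0.87 with the third run only and not called. Striatum minus brainstem was 1.48 ± 0.28 and 1.85 ± 0.44 with the older and the younger old arrays, and was called in both. Striatum minus cerebellum was 0.81 ± 0.28 with the older, called (adjusted p = 0.239 for the single comparison), and -0.48 ± 0.43 with the younger, not called.

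Both probe sets of S100b and the brightest of Aqp4 also changed more in striatum. The brightest S100b probe set rose there by 0.76 ± 0.19 more than in cerebellum and by 0.52 ± 0.20 more than in brainstem (limma adjusted p = 0.0133 and 0.0326), and the second by 0.89 ± 0.18 and 0.71 ± 0.19 more (0.00212 and 0.00303). For the brightest, neither difference was called with old arrays of 26 and 28 months only (0.76 and 0.02, adjusted p = 0.267 and 0.961), and that from brainstem lost its call in 8 of 54 fits without 1 array (0.43 to 0.53). For the brightest Aqp4 probe set these differences were 0.58 ± 0.19 (adjusted p = 0.064 for the single comparison, called) and 0.78 ± 0.20 (adjusted p = 0.00199). With 26 and 28 months only they were 0.64 and 0.72 and not called (0.625 and 0.174). The other 2 Aqp4 probe sets had no call in these comparisons, with 0.14 ± 0.25 and -0.09 ± 0.58 for striatum minus cerebellum. For the brightest Slc1a2 probe set the difference in age change was -0.67 ± 0.14 for brainstem minus cerebellum and 0.52 ± 0.15 for striatum minus brainstem. Both were called with 26 and 28 months only (-1.03 and 0.82), and neither with 20 to 22 months only (-0.51 and 0.39, adjusted p = 0.109 and 0.165). For the brightest Slc1a3 probe set the difference was 0.50 ± 0.18 for brainstem minus cerebellum. This call was lost in both fits by months (0.35 and 0.49) and in 31 of 54 fits without 1 array (0.36 to 0.51). The second Slc1a3 probe set gave 0.46 ± 0.13 (limma adjusted p = 0.0116), also called, and the others of this gene had no call here. Neither Vim's brightest probe set nor those of Aldh1l1, Glul, Gja1 and Gjb6 were called here with all arrays, and without the old WT striatum array of 22 months Vim (1.05 for striatum minus cerebellum) and Aldh1l1 (0.36 for striatum minus brainstem, -0.30 for brainstem minus cerebellum) were. Vim was also called without the old PrPmtA brainstem array of 28 months (0.93). The dimmest of Vim changed more in striatum than in cerebellum (0.85 ± 0.30, adjusted p = 0.0839 for the single comparison, called). The fifth Gja1 probe set gave -1.83 ± 0.60 for striatum minus cerebellum (limma adjusted p = 0.0629 for the single comparison, called). The sixth, at a mean signal of 4.23, gave -0.16 ± 0.05 for brainstem minus cerebellum and 0.18 ± 0.05 for striatum minus brainstem, both called.

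Differences between lines were tested over all regions and ages, in old mice by region, and in the age change. No member was called in any of these families by limma, in which 0.366%, 0.204% and 3.78% of all probe sets were called. At an unadjusted p under 0.05 there were 5 of 66, 7 of 198 and 11 of 198 tests of the members, against 15.2%, 5.24% and 12.8% of the tests of all probe sets. The smallest adjusted p over all regions and ages was 0.0468, for the second probe set of Glul in PrPmtB (0.34 ± 0.07 above WT), which became 1 call when each comparison was adjusted by itself, and there was also 1 call without the 3 PrPmtA arrays of 28 months. Gfap differed from WT by 0.22 ± 0.23 in PrPmtA and by 0.10 ± 0.24 in PrPmtB over all regions and ages. In old striatum PrPmtA minus WT was 1.04 ± 0.57 (limma adjusted p = 0.988), where both PrPmtA arrays were of 26 and 28 months and the WT arrays of those ages read 11.07 and 11.60. The difference between PrPmtA and WT in the age change of Gfap in striatum was 0.54 ± 0.87.

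Other astrocyte genes were taken from 2 lists that hold none of the members. Of 30 measured genes of reactive astrocytes, 5 to 14 were called higher in the age comparisons and 0 to 2 lower, with list medians from 0.18 to 0.66 (6.98% to 10.8% of all probe sets were called higher in these comparisons). The 3 with the largest mean change were Cd44, the hyaluronan receptor (mean 1.42, higher in 8 of 9), Osmr, the oncostatin M receptor (1.26, higher in 6 of 9), and Serpina3n, a secreted protease inhibitor (1.16, higher in 9 of 9). In WT striatum they changed by 1.75 ± 0.42, 1.89 ± 0.52 and 1.57 ± 0.31. The lowest mean changes of this list were those of Lcn2 (-0.34) and Ptx3 (-0.08), called in none, and Steap4 (-0.07, lower in 5 of 9). Their mean signals of 3.13, 2.90 and 2.42 were low for the array. Of 33 measured homeostatic genes, 9 to 18 were called higher and 0 to 2 lower, with medians from 0.22 to 0.40. The largest mean changes were those of Agt, which encodes angiotensinogen (1.23, higher in 9 of 9), Slc6a11, a GABA transporter (0.93, higher in 6), and Mertk, a phagocytic receptor that microglia also carry (0.88, higher in 8). The lowest were those of Ttyh1 (-0.18), Clu (-0.08, called higher in 1 comparison) and Dio2 (-0.04).

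Over the 18 group means, the 5 of 18193 genes whose pattern was most like that of Gfap were Apod (Pearson's r 0.952), Man2b1 (0.95), Cd74 (0.948), Msrb1 (0.948) and B2m (0.946). Apod encodes a lipid-binding apolipoprotein, Man2b1 a lysosomal mannosidase, and Cd74 and B2m chains of antigen presentation. Among the members only Aldh1l1 came near (0.849), and the others had r from -0.306 for Gja1 to 0.362 for Gjb6, with Vim at 0.03. These correlations describe means that share arrays, regions and ages.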

How the data were processed

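The deposited values were log2 signals of an Affymetrix mouse genome array, normalized by the authors over all arrays and scanned as 1 colour. The sample notes name GCRMA and the study's methods name RMA, with no version given in the sources used here, and either summarises the probes of a probe set into 1 log2 value. No counts exist for arrays, and the number of arrays limits the precision.

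Of 45101 probe sets, 64 array controls were left out. Of the 45037 tested, 34945 had 1 gene in the platform annotation, 932 several and 9160 none. A limma model gave a mean to all 18 groups (R 4.3.3, limma 3.58.1, statmod 1.5.0) with empirical Bayes variances and 36 residual degrees of freedom. Calls were made by decideTests with nestedF (Benjamini-Hochberg, false discovery rate 0.05), as the study's methods state. The script was tested on simulated data. The transgene's own signal is not reported here. Every probe set of the 10 genes was counted, with the brightest leading, and not every one is described by its own values. From each list of other astrocyte genes, the 3 with the largest and the 3 with the lowest mean age change over the 9 comparisons were named. The 5 genes most like Gfap over the 18 group means were named too. The members and lists were chosen with earlier results of these data known.

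Alternatives were quantile normalization, the brighter probe sets only, separate fits, decideTests with method separate, a term for the run of array codes, the third run only, sex, shared codes as a random block, the brightest probe sets only, and each array left out. The term for the run separates only the runs of old arrays. It cannot adjust an age change for run, because all young arrays are of another run. Fits by months of age and without 3 PrPmtA arrays of 28 months were added after seeing the data. Replicate numbers were given in accession order and pair no samples.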

Additional observations from a re-analysis of the deposited data

Results flagged for a closer look

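In 60 tests (the brightest probe sets of 10 genes in the 6 groups of 4 to 6 arrays), 5 had an array far from the others by Dixon's criterion. Chance gives about 1 in 20, and the tests share arrays. Aldh1l1 was low in an old WT striatum array of 22 months (7.76, the nearest at 8.61) and in an old WT cerebellum array of 20 months (8.79, the nearest at 9.06), and Slc1a2 was low in the latter array (11.23, the nearest at 11.95). Aldh1l1 was low in the PrPmtA cerebellum array of 28 months (8.97, the nearest at 9.14), and Gja1 was high in the PrPmtA brainstem array of 28 months (12.95, the nearest at 12.7). Both PrPmtA arrays are among the 3 that were labelled female and had Y-linked signal.

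The age change differed between regions, by limma's test of the difference, for the brightest probe sets of 5 genes. Of the tests of all 33 probe sets, 15.2% were called higher and 5.05% lower, against 11.5% and 13.5% for all probe sets. Gfap had -1.85 for brainstem minus cerebellum and 2.10 for striatum minus brainstem. S100b had 0.76 for striatum minus cerebellum and 0.52 for striatum minus brainstem. Aqp4 had 0.58 and 0.78 (single-comparison limma adjusted p of 0.064 and 0.00199). Slc1a2 had -0.67 for brainstem minus cerebellum and 0.52 for striatum minus brainstem. Slc1a3 had 0.50 for brainstem minus cerebellum, a call lost in 31 of 54 fits without 1 array.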

How the results depend on the processing

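For the brightest probe set of each gene, no direction of a called age change or region difference was reversed under any alternative. The other probe sets were not checked for this. With the brightest probe set of each gene only, which leaves 10 of the 33 probe sets, the counts were 9 higher of Gfap and Vim, 20 higher and 8 lower of the homeostatic genes, 28 for region levels and 9 for region differences in age change, by construction. With each comparison adjusted by itself, the homeostatic genes had 26 lower in place of 42. With the third run of old arrays only, region differences in age change fell from 20 to 8, and the cause was not tested. The line comparison over regions and ages had 1 call in place of 0 under separate adjustment, a term for the run of codes, sex as a covariate, and without the 3 PrPmtA arrays of 28 months. Leaving out each array in turn gave 32 to 35 higher of Gfap and Vim, 31 to 41 higher and 38 to 44 lower of the homeostatic genes, 71 to 78 region levels, 16 to 24 region differences in age change, and 0 to 1, 0 to 0 and 0 to 2 in the line families (all regions and ages, old mice, age change). Quantile normalization brought the median age change of all probe sets from between -0.10 and 0.01 to between -0.01 and 0.01. Blocking on the shared codes (30 blocks, correlation 0.175) left every count within 1.5 times. No paired analysis was possible by replicate number because these numbers were given in accession order, and the shared codes were the only block. Dim probe sets, 6 of 33 under a mean of 5, carry little information on change. Their means ranked from the 11.6th to the 55.7th percentile of all tested probe sets.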
